A study of Mus musculus with 4 samples.

Results

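Chromatin-modifying enzymes and related proteins were taken from the count table by their symbols: histone acetyltransferases (Kat), lysine methyltransferases (Kmt, Setd, Suv, Ezh), arginine methyltransferases (Prmt), DNA methyltransferases (Dnmt), lysine demethylases (Kdm), deacetylases (Hdac, Sirt), TET dioxygenases (Tet), the remodeller families Smarc and Chd, and bromodomain proteins (Brd). The rule found 106 of the 12020 genes, of which 38 are writers, 38 erasers, 23 remodellers and 7 bromodomain proteins, and 104 passed the filter on low counts. Sirt4 and Smarcd3 did not pass it. The symbols also take in the antisense transcript Chd3os, the pseudogene Smarca5-ps and enzymes that act largely outside chromatin, such as the mitochondrial sirtuins and the actin methyltransferase Setd3. The libraries came from natural killer T cells, lymphocytes with a semi-invariant receptor for lipids on CD1d. All 4 libraries share the C57BL/6 background, a Va14 receptor transgene, 1 copy of GFP at the Cxcr6 locus, a sort on high GFP and an age of 10 to 12 weeks. In the 2 resting libraries the sorted cells were left unstimulated, and in the 2 tetramer libraries they were stimulated on plates coated with PBS57-loaded mouse CD1d tetramers. GEO's labels name liver as the tissue, although the sort is described for liver or spleen, and how long they were cultured and how many mice gave each library are points the sources used here do not state. The RNA extraction text of the labels speaks of islets.

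Writers place acetyl or methyl groups on histone tails or methyl groups on cytosine, erasers remove or oxidise them, and bromodomain proteins bind acetylated lysines. Remodellers use ATP to slide, eject or exchange nucleosomes, and many work in complexes whose subunits come in alternative versions encoded by related genes. In T cells these enzymes are known for holding cytokine loci closed or open and for copying chromatin states through cell division.

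Library totals ranged from 4168438 to 5495521 counts. The members took 0.791% to 0.992% of the counts at rest and 0.638% to 0.738% after stimulation. The 8 NKT and T cell markers in the table (of 9 sought) summed to 2602 to 2977 CPM at rest and 2601 to 2771 CPM after stimulation (read counts divided by the library's scaled total in megareads). Of these markers 0 rose and 1 fell by edgeR: Cxcr6, the locus of the GFP used for the sort, was at 1617 and 1102 CPM at rest and 414 and 718 CPM after stimulation (log2 fold change -1.26 ± 0.40, adjusted p = 0.019). Stimulated libraries also differed in cell cycle transcripts: of the 15 S and G2/M phase genes in the table (of 21 sought) 13 rose and 0 fell. Ccnb1, Ccnb2, Cdk1, Aurkb, Bub1 and Plk1 were sought but are not in the table. The summed level of those present was 381 and 360 CPM in resting libraries 4 and 5. In tetramer libraries 4 and 5 it was 1716 and 1034 CPM. Markers of other cell types were read at low levels that were lower after stimulation, and none that the table holds is listed at 0. The 3 macrophage markers in the table (of 9 sought) summed to 20.3 to 25.6 CPM at rest and 8.18 to 9.71 CPM after stimulation, the 4 B cell markers to 21.3 to 29.7 and 13.3 to 16.6 CPM, the 3 red cell genes to 130 to 337 and 27.2 to 68.4 CPM, the 2 neutrophil genes to 18 to 19.5 and 1.84 to 3.24 CPM, the 2 hepatocyte genes to 24.9 to 37.2 and 8.18 to 11.5 CPM, and the endothelial gene Pecam1 was at 28.8 to 75 and 10.2 to 15.8 CPM. The part of cell cycle or other cells in the results below was not tested.

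Among the members, Ezh2 rose most after stimulation, followed by Prmt7, the SWI/SNF subunit Smarcc1, Prmt5, the deacetylase Hdac10, Prmt3 and Prmt1, while histone demethylases and MLL-type methyltransferases fell or did not pass the test. Of 104 members tested, 13 rose (12.5%) and 19 fell (18.3%) in the quasi-likelihood F test of edgeR, with 0.05 as the limit of the adjusted p. Over all 11312 genes tested, 14.3% rose and 12.1% fell (26.4% in either direction), so the share of members that rose was near the background. The median log2 fold change of tetramer over resting was -0.02 for members and -0.06 for all genes. Both tetramer libraries lay above both resting libraries for 30 members and below them for 37, against 31.6% and 33.7% of all genes. Directions are relative to scaling by trimmed means (TMM): with library totals the median gene stood at -0.35, and 6 members rose and 24 fell. The rises of Hdac10, Kat8, Hdac7, Dnmt3a, Dnmt1, Chd7 and Chd4 were those not called with library totals. In sorted bulk cells, less RNA per cell and fewer cells that express a gene cannot be told apart.

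By class, 8 writers rose and 7 fell of 38, 2 erasers rose and 8 fell of 37, 3 remodellers rose and 4 fell of 22, and none of the 7 bromodomain proteins passed the test in either direction. The median log2 fold change was 0.06 for writers, -0.40 for erasers and 0.10 for remodellers, and with library totals these became -0.25, -0.70 and -0.19. The low number of erasers that rose, 5.41% against 14.3% of all genes, is a count, and no test of it was made. Without tetramer library 4 the rises and falls were 5 and 0 for writers, 0 and 0 for erasers and 1 and 0 for remodellers. Without tetramer library 5, 1 eraser rose and 1 fell, and without resting library 4, 2 writers fell. In the plot of fold changes by family, the Prmt and Dnmt families lie mostly above 0 and the Kmt and Kdm families mostly below it.

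**Figure D1:**
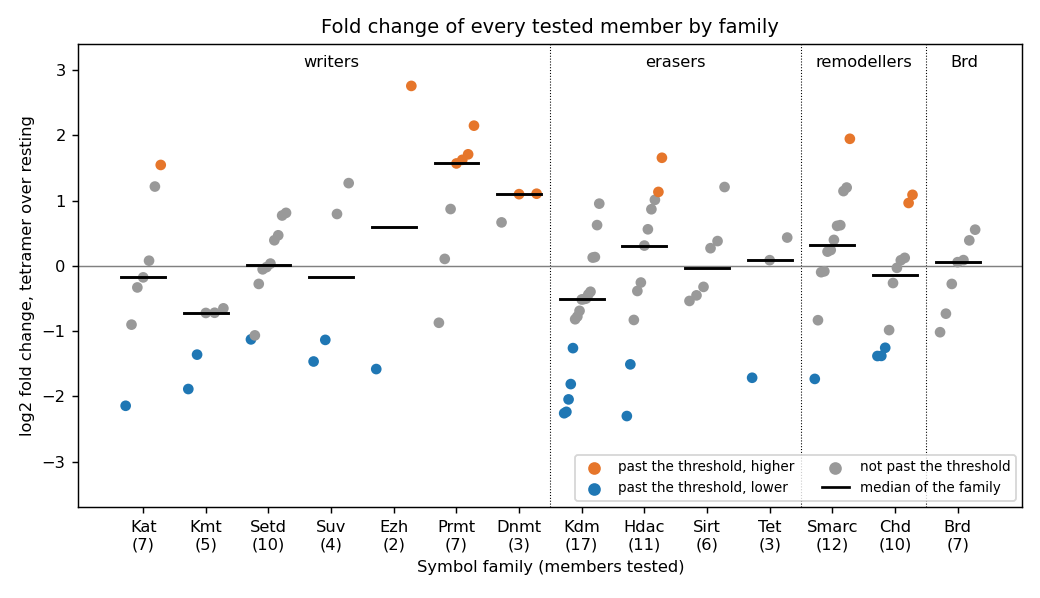
Log2 fold change (tetramer over resting, vertical axis) of each of the 104 tested members, grouped by symbol family with the number tested in parentheses, with a black bar at the median of each family. Orange points are the 13 members that rose, blue the 19 that fell and grey those past no threshold, and the 4 rises among 7 Prmt genes stand beside 0 rises and 5 falls among 17 Kdm genes.

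Tetramer library 4 carried much of the evidence for falls. It lay farther from the resting libraries than tetramer library 5 did: across the 104 members, which are not independent replicates, Pearson's r of log2 CPM with resting library 4 was 0.771 for tetramer library 4 and 0.837 for tetramer library 5. Over all genes tested these values were 0.790 and 0.836, so the distance is not particular to the members. In 17 of the 19 members that fell, tetramer library 4 had the lower value of the 2 stimulated libraries. The same share over all genes that fell was not counted. Without it, 6 members rose and 0 fell by edgeR, against 5.33% and 2.68% of all genes, although the fold changes of all 19 stayed negative (-2.13 to -0.87, adjusted p 0.0523 to 0.533) and 15 members were lower at an unadjusted p below 0.05. Without tetramer library 5, 7 members rose and 10 fell. Such a fit takes the spread of the resting pair to hold for the lone stimulated library too. Each fall of a member reported below was called only with tetramer library 4 present.

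The methyltransferases of Polycomb repressive complex 2, which trimethylate H3K27, showed the largest shift of balance among related members. Ezh2, the main enzyme of dividing cells, was at 26.7 and 19.4 CPM in resting libraries 4 and 5 and at 182 and 130 CPM in tetramer libraries 4 and 5. Both stimulated libraries lay far above both resting ones, a 6.77-fold rise (log2 fold change 2.76 ± 0.40 SE, edgeR adjusted p = 1.79e-05). Ezh1, its counterpart in resting tissues, was at 111 and 70.9 CPM at rest and 18.8 and 42.1 CPM after stimulation. It fell by 1.58 ± 0.43 on the log2 scale (edgeR adjusted p = 0.0081), and by 1.10 without tetramer library 4 (adjusted p = 0.243). The ratio of Ezh1 to Ezh2 counts within a library was 4.17 and 3.65 at rest and 0.103 and 0.322 after stimulation, so the balance moved 21.4-fold. The summed S and G2/M transcripts moved with Ezh2 across the 4 libraries (381 and 360 against 1716 and 1034 CPM), and their part in its rise was not tested.

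The promoters of this pair are shown because its members moved in opposite directions. They are RefSeq windows of 300 bases in build GRCm38.p6, from 250 before to 50 after the annotated start, printed 5′ to 3′ on the minus strand of the genome, at chr6:47594981-47595280 (Ezh2) and chr11:101226414-101226713 (Ezh1). Capitals mark words of the E2F motif, the site type of the S phase factors, searched on both strands as TTTCCCGC, TTTCGCGC, TTTGCCGC and TTTGGCGC.
Ezh2: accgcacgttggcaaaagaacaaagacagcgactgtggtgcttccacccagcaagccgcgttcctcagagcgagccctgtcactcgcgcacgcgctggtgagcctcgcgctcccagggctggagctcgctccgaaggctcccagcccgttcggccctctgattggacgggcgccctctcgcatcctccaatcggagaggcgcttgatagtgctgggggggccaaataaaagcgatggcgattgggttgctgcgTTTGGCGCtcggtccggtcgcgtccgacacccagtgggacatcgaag
Ezh1: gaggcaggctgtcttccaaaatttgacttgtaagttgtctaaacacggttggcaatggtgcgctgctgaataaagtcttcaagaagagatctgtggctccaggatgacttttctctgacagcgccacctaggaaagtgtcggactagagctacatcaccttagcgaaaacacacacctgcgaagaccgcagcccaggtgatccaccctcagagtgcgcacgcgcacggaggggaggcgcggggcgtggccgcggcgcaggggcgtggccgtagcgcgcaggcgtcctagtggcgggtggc
The Ezh2 window holds TTTGGCGC just after the start, and the Ezh1 window holds none of these words. Words of other motifs were searched as well, E-box (CACGTG), CRE (TGACGTCA) and ETS (CCGGAAGT), and neither window holds them. The windows of Smarcc1 and Prmt5, which rose too, hold no word of any of these motifs. An E2F word occurred in 2.26% of all 32851 promoter windows, and in 6.9% of the 116 windows of members. By gene, 8 of the 85 matched members held one, among them 2 of the 11 matched genes that rose and 1 of the 14 that fell. Over all 27025 genes with a window, 704 held one. The E-box word was held by 3 of the 11 and 1 of the 14, CRE by 0 and 0, and ETS by 1 and 0. Over all these genes the counts were 2187 for E-box, 549 for CRE and 1164 for ETS. No test of these counts was made. Of the 106 members, those beyond the 85 matched had no matching entry. The windows of Ezh2 and Ezh1 contained 31 and 23 CpG dinucleotides, and a match is a description of these letters only.

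Other members that methylate H3K9, H4K20, H3K4 or H3K36 fell or did not pass the test. The KMT2 family places H3K4 methylation, and all 5 members had negative fold changes (-1.89 to -0.65). Of these, 2 were past the threshold, where 12.1% of all genes fell. Kmt2c, which marks enhancers, was at 267 and 143 CPM at rest and 42.8 and 68.2 CPM with tetramer, a log2 change of -1.89 ± 0.40 (edgeR adjusted p = 0.00112). Its values do not overlap between the groups, and its call was narrowly lost without tetramer library 4 (adjusted p = 0.0523). Kmt2e, a family member not known to be an active methyltransferase, was at 871 and 588 CPM at rest and 241 and 327 CPM after stimulation, a change of -1.36 ± 0.38. It did not pass without resting library 4 (adjusted p = 0.0754) or without tetramer library 4 (0.197). Kmt2a (-0.65), Kmt2b (-0.72) and Kmt2d (-0.72) did not pass, with adjusted p of 0.19 to 0.192.

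The H4K20 methyltransferases Suv420h1 and Suv420h2 fell together. Suv420h2 went from 114 and 78.4 CPM to 26.4 and 43.3 CPM (-1.47 ± 0.41, edgeR adjusted p = 0.00898), and Suv420h1 from 154 and 100 CPM to 47.5 and 68.2 CPM (-1.13 ± 0.38, adjusted p = 0.0296). Without resting library 4 the adjusted p was 0.0537 and 0.202, without tetramer library 4 it was 0.222 and 0.351, and for Suv420h1 without tetramer library 5 it was 0.0611. Setd8, which adds the first methyl group to H4K20, was at 17.2 and 23.5 CPM at rest and 46.4 and 23.1 CPM after stimulation, with overlapping groups (0.77, adjusted p = 0.226). The H3K36 methyltransferase Setd2 went from 110 and 53.9 CPM to 30.7 and 44.5 CPM, a change of -1.13 ± 0.42 that only just passed (edgeR adjusted p = 0.0461). Without resting library 4 its fold change was -0.50 (adjusted p = 0.462), and its call was also lost without tetramer library 4 (0.387) or 5 (0.079), by the DESeq2 test (0.0607) and by limma-voom (0.0688). The H3K9 enzymes Suv39h1 (0.79) and Suv39h2 (1.27) were higher in both stimulated libraries without passing the test (adjusted p = 0.125 and 0.151), and Suv39h2 passed without resting library 5 (2.35, adjusted p = 0.0187). Setd1b, an H3K4 methyltransferase, had the largest change among Setd genes that did not pass (-1.07, adjusted p = 0.0802), and the other 8 uncalled Setd genes ranged from -0.28 (Setd3) to 0.81 (Setdb1).

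Arginine methyltransferases were the family with the most rises by number, at 57.1% of those tested. DNA methyltransferases, with only 3 genes, had the higher share (66.7%). Of 7 tested 4 rose and 0 fell by edgeR, DESeq2 and limma-voom alike, where 14.3% of all genes rose and 12.1% fell by edgeR. At an unadjusted p below 0.05, 0 were lower in these fits. With library totals 4 also rose, where 10.5% of all genes did, and 1 was lower at an unadjusted edgeR p below 0.05. Prmt5, the main enzyme of symmetric dimethylation, which also acts on splicing proteins, was at 146 and 228 CPM at rest and 629 and 593 CPM after stimulation. Its rise of 1.71 ± 0.38 on the log2 scale (edgeR adjusted p = 0.00161) kept its call when any single library was left out. Prmt1, the main enzyme of asymmetric dimethylation, was at 48.5 and 89.8 CPM at rest and 161 and 249 CPM after stimulation (1.57 ± 0.40, adjusted p = 0.00464). It did not pass without resting library 4 (0.0541) or without tetramer library 5 (0.0717). Prmt3, a cytosolic enzyme that methylates a ribosomal protein, went from 20.7 and 18.2 CPM to 58.3 and 61.7 CPM (1.62 ± 0.42). Prmt7, a monomethylating enzyme, went from 3.73 and 9.19 CPM to 27.8 and 29.5 CPM (2.15 ± 0.54, adjusted p = 0.00464), and its fold change ranged from 1.65 without resting library 4 to 2.96 without resting library 5. Within each group the stimulated values of Prmt3 and Prmt7 lay close together and far from the resting ones.

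The remaining arginine methyltransferases did not pass the test. Prmt2 was lower in both stimulated libraries (9.41 and 12.3 CPM against 16.4 and 23.5 CPM, adjusted p = 0.21). Prmt6 was higher in both (33.8 and 35.2 against 25.3 and 12.4 CPM, adjusted p = 0.169), and passed without resting library 4 (1.49, adjusted p = 0.0377). Prmt10 was at 11.6 and 4.06 CPM at rest and 8.18 and 8.7 CPM after stimulation, between the resting values. The count ratio of Prmt1 to Prmt2 was 2.96 and 3.82 at rest and 17.1 and 20.2 after stimulation.

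Of the 3 DNA methyltransferases, 2 rose with TMM scaling and 0 with library totals, where 14.3% and 10.5% of all genes rose. All 3 had positive fold changes under both. Dnmt3a, a de novo enzyme, was at 76.4 and 49.1 CPM at rest and 133 and 138 CPM after stimulation (1.11 ± 0.38, edgeR adjusted p = 0.0303). It passed only without resting library 4 among fits lacking a library (adjusted p without resting library 5 = 0.183, without tetramer library 4 = 0.157, without tetramer library 5 = 0.133). Dnmt1, which copies methylation at replication, was at 72.9 and 58.3 CPM at rest and 197 and 84.6 CPM after stimulation (1.10 ± 0.40, adjusted p = 0.0432). Its rise rested on tetramer library 4, the library with the higher sum of S and G2/M transcripts: without that library it was 0.38 (adjusted p = 0.738), and the call was also lost without resting library 5 (0.121) and by the DESeq2 test (0.055). Dnmt3b was higher in both stimulated libraries but did not pass (0.67, adjusted p = 0.283). On the erasing side, Tet1 fell from 25.7 and 42.5 CPM to 9 and 11.7 CPM (-1.72 ± 0.49, edgeR adjusted p = 0.0115), while Tet2 (0.09) and Tet3 (0.43) overlapped between groups. Tet1 did not pass without resting library 5 (0.0705), tetramer library 4 (0.171) or tetramer library 5 (0.0516).

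Acetyltransferases moved in both directions. Of the related coactivators Kat2a (GCN5) and Kat2b (PCAF), Kat2b fell from 29.4 and 13.9 CPM to 4.3 and 5.46 CPM (-2.14 ± 0.57, edgeR adjusted p = 0.00672), and Kat2a was at 13.3 and 17.7 CPM at rest and 35.6 and 36.4 CPM after stimulation, just short of the threshold (1.22, adjusted p = 0.0501). Kat2a passed by the DESeq2 test (adjusted p = 0.0322), by limma-voom (0.0483) and without resting library 5 (0.0399). The call of Kat2b was lost without resting library 4 (0.0621) or tetramer library 4 (0.121). Kat8, which acetylates H4K16, rose from 4.35 and 6.84 CPM to 16 and 16.8 CPM (1.55 ± 0.57, adjusted p = 0.0428), a call lost without resting library 4 (0.12), tetramer library 4 (0.229) or tetramer library 5 (0.204). Kat5, Kat6a, Kat6b and Kat7 ranged from -0.90 (Kat6b) to 0.08 (Kat7) and did not pass.

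**Figure D2:**
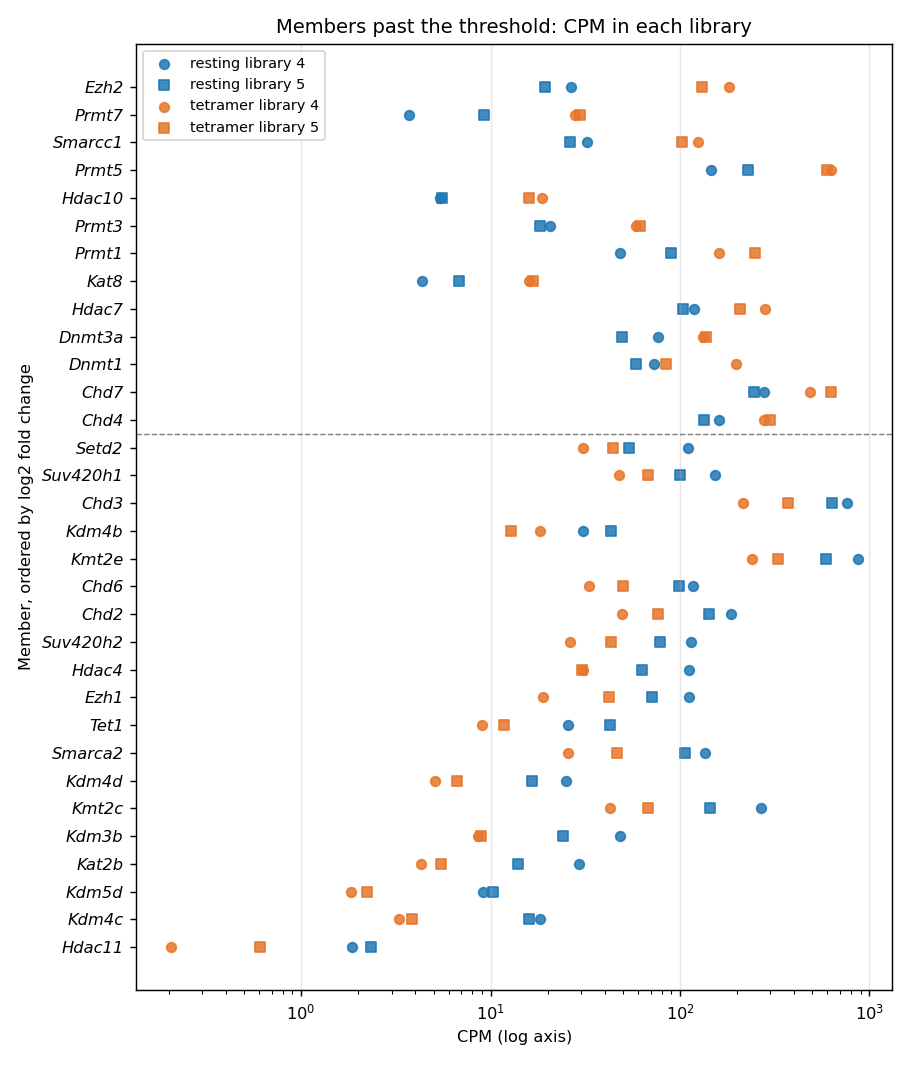
CPM on a log axis (horizontal) of the 13 members that rose, above the dashed line, and the 19 that fell, below it, ordered by log2 fold change. Blue points are resting and orange tetramer libraries, circles library 4 and squares library 5, and in each row the 2 colours do not overlap, from Ezh2 at the top (19.4 to 26.7 CPM at rest, 130 to 182 CPM after stimulation) to Hdac11 at the bottom.

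Lysine demethylases fell in 5 of 17 cases (29.4%) and rose in 0 by edgeR, DESeq2 and limma-voom. Over all 11312 genes, 12.1% fell and 14.3% rose by edgeR, and 5884 had negative fold changes, against 13 of the 17 demethylases. At an unadjusted p below 0.05, 1 was higher (Kdm2b) and 5 were lower. Kdm3b, an H3K9 demethylase, was at 48.3 and 24.1 CPM at rest and 8.59 and 8.9 CPM after stimulation (-2.05 ± 0.50, edgeR adjusted p = 0.00398). Both stimulated values were alike and below both resting ones, and the call was lost when tetramer library 4 was left out (adjusted p = 0.0565) but not any other library. The KDM4 enzymes remove methyl groups from H3K9 and H3K36. Kdm4c fell from 18.2 and 16 CPM to 3.27 and 3.84 CPM (-2.26 ± 0.59), Kdm4d from 25.1 and 16.5 CPM to 5.12 and 6.68 CPM (-1.81 ± 0.55), and Kdm4b from 30.9 and 43.4 CPM to 18.2 and 12.7 CPM (-1.26 ± 0.46). Kdm4a was lower in both stimulated libraries without passing (-0.82, adjusted p = 0.276).

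The calls of these KDM4 genes each needed several libraries. Kdm4c was lost without tetramer library 4 (edgeR adjusted p = 0.117) or 5 (0.0516). Kdm4d did not pass without resting library 4 (0.0585), tetramer library 4 (0.215) or tetramer library 5 (0.0751), and Kdm4b without resting library 5 (0.171), tetramer library 4 (0.159) or tetramer library 5 (0.301). Their fold changes stayed negative throughout, from -2.37 to -2.13 for Kdm4c, from -2.06 to -1.46 for Kdm4d and from -1.52 to -0.97 for Kdm4b.

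Among the H3K4 demethylases of the KDM5 family, the Y-linked Kdm5d fell from 9.12 and 10.3 CPM to 1.84 and 2.23 CPM (-2.24 ± 0.66, edgeR adjusted p = 0.014), a call lost without tetramer library 4 (0.211) or 5 (0.112). Its X-linked relative Kdm5c varied within groups more than between them, at 143 and 535 CPM at rest and 158 and 318 CPM after stimulation (-0.51, adjusted p = 0.427). Its fold change was -1.15 without resting library 4 (adjusted p = 0.0446) and 0.76 without resting library 5. The X and Y copies are similar in sequence, and how shared reads were counted between copies the sources used here do not say. Kdm5a (-0.50) and Kdm5b (-0.40) did not pass. The H3K27 demethylases Kdm6a (-0.52) and Kdm6b (0.62) did not pass either, and neither did the H3K4 demethylases Kdm1a (0.13) and Kdm1b (0.13). Kdm2b, which links an H3K36 demethylase domain to Polycomb recruitment, had the largest positive value, from 31.9 and 53.6 CPM to 68.1 and 97.5 CPM (0.95 ± 0.40, adjusted p = 0.0793), and passed without resting library 5 (1.40, adjusted p = 0.0262).

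Histone deacetylases parted within class IIa, the signal-regulated enzymes that shuttle between nucleus and cytoplasm. Hdac7 rose from 119 and 104 CPM to 281 and 207 CPM (1.13 ± 0.37, edgeR adjusted p = 0.0235), whereas Hdac4 fell from 111 and 62.8 CPM to 30.7 and 30.3 CPM (-1.51 ± 0.41, adjusted p = 0.00795). The count ratio of Hdac4 to Hdac7 within a library was 0.935 and 0.605 at rest and 0.109 and 0.146 after stimulation. Hdac7 was not called without resting library 5 (0.0889) or tetramer library 4 (0.277), nor Hdac4 without resting library 4 (0.0973), tetramer library 4 (0.0951) or tetramer library 5 (0.0605). Hdac5 (-0.83) and Hdac9 (-0.39) did not pass.

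The class I deacetylases of the nuclear corepressor complexes did not pass, although Hdac1 (51.4 and 40.6 against 103 and 65.3 CPM, adjusted p = 0.103) and Hdac2 (42.1 and 39.7 against 59.5 and 61.1 CPM, adjusted p = 0.305) were higher in both stimulated libraries. Hdac3 (0.31) and Hdac8 (-0.26) overlapped between groups. Hdac10, a polyamine deacetylase, rose from 5.39 and 5.56 CPM to 18.6 and 16 CPM (1.66 ± 0.56, edgeR adjusted p = 0.0282), a call lost without tetramer library 4 (0.248) or 5 (0.115). Hdac11, known for removing fatty acyl groups, had 20 counts at rest and 4 after stimulation, a scaled ratio of 0.193 with an exact 95% interval from 0.0481 to 0.577 that covers counting error only. Its call (adjusted p = 0.0465) was lost by limma-voom (0.0525) and without tetramer library 4 (0.533) or 5 (0.223). Hdac6, a tubulin deacetylase, was at 6.22 and 3.63 CPM at rest and 8.39 and 11.5 CPM after stimulation (adjusted p = 0.225).

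None of the 6 sirtuins tested passed in either direction by edgeR, DESeq2 or limma-voom, and 0 were higher and 0 lower at an unadjusted p below 0.05. Among the nuclear ones, Sirt7 was lower in both stimulated libraries (81.4 and 103 against 58.9 and 68.4 CPM, adjusted p = 0.297), while Sirt1 (0.38) and Sirt6 (-0.45) overlapped. Of the mitochondrial sirtuins, Sirt5 had the largest value (1.21, adjusted p = 0.194) at levels below 5 CPM, Sirt3 ranged from 1.45 to 8.76 CPM at rest alone, and Sirt4 was too low to test.

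Among the SWI/SNF remodellers, which open chromatin at enhancers and promoters, 1 subunit of each of 2 pairs passed the test and its relative did not. Smarcc1 (BAF155), a core scaffold subunit, rose from 32.3 and 26.3 CPM to 124 and 102 CPM (1.95 ± 0.39, edgeR adjusted p = 0.000686), and the call held whichever library was left out. Its relative Smarcc2 (BAF170) was at 66.9 and 69.4 CPM at rest and 41.3 and 35.2 CPM after stimulation, lower in both libraries but not past the threshold (-0.83, adjusted p = 0.118, and 0.0354 with library totals). The ratio of Smarcc1 to Smarcc2 counts was 0.483 and 0.378 at rest and 3.0 and 2.9 after stimulation, a 6.9-fold change of balance. Of the alternative ATPases, Smarca2 (BRM) fell from 135 and 106 CPM to 25.6 and 46.7 CPM (-1.73 ± 0.40, adjusted p = 0.00247, and 0.125 without tetramer library 4), while Smarca4 (BRG1) was at 183 and 112 CPM at rest and 181 and 167 CPM after stimulation (0.24, adjusted p = 0.66). The balance of Smarca2 to Smarca4 moved 4.2-fold.

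The other SWI/SNF subunits did not pass. Smarcb1, a core subunit, went from 11 and 17.5 CPM to 33.8 and 29.3 CPM (1.15, adjusted p = 0.0747). Smarcd1 was at 20.1 and 8.33 CPM at rest and 44.4 and 21 CPM after stimulation (1.20, adjusted p = 0.0832), and passed without resting library 4 (1.99, adjusted p = 0.00693). Smarcd2 (-0.10) and Smarce1 (-0.08) overlapped, and Smarcd3 was too low to test. The ISWI ATPase Smarca5 (0.61) and its pseudogene Smarca5-ps (0.62) gave nearly the same value, and reads may not tell them apart. Smarca5 passed without resting library 4 (1.45, adjusted p = 0.0212).

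Of 10 CHD remodellers tested, 2 rose (20%) and 3 fell (30%), against 14.3% and 12.1% of all genes. The number that rose was 0 in each fit that left out a library, and the number that fell was 0 without tetramer library 4 and 2 without resting library 4. Chd3 and Chd4 are alternative ATPases of the NuRD complex, which couples remodelling to deacetylation. Chd3 fell from 763 and 636 CPM to 216 and 370 CPM (-1.26 ± 0.38, edgeR adjusted p = 0.0163), and Chd4 rose from 161 and 133 CPM to 276 and 297 CPM (0.96 ± 0.36, adjusted p = 0.0486). Their count ratio was 4.75 and 4.78 at rest and 0.781 and 1.25 after stimulation. Chd3 was lost without resting library 4 (0.0565) or tetramer library 4 (0.331), and Chd4 whichever library was left out, at adjusted p from 0.0746 to 0.197. The transcript Chd3os, antisense to Chd3, was between 4.85 and 8.8 CPM in all libraries. The sources used here do not say whether counting used strand, so reads of Chd3 and Chd3os may not be told apart.

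Chd7, which acts at enhancers, rose from 278 and 246 CPM to 488 and 625 CPM (1.09 ± 0.37, edgeR adjusted p = 0.0285), and was lost whichever library was left out (adjusted p 0.0601 to 0.205). Its relative Chd6 fell from 118 and 98.7 CPM to 33.1 and 50 CPM (-1.38 ± 0.39, adjusted p = 0.0103), a call lost only without tetramer library 4 (0.233). The ratio of Chd6 to Chd7 was 0.424 and 0.402 at rest and 0.068 and 0.0799 after stimulation. Chd8 (-0.26) overlapped and Chd9 (-0.98, adjusted p = 0.132) was lower in both stimulated libraries. Chd2 fell from 185 and 142 CPM to 49.3 and 76.3 CPM (-1.38 ± 0.38, adjusted p = 0.0086, and 0.224 without tetramer library 4), while Chd1, which binds H3K4 methylation, overlapped between groups (0.12). The ratio of Chd1 to Chd2 was 0.423 and 0.428 at rest and 1.16 and 1.24 after stimulation.

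**Figure D3:**
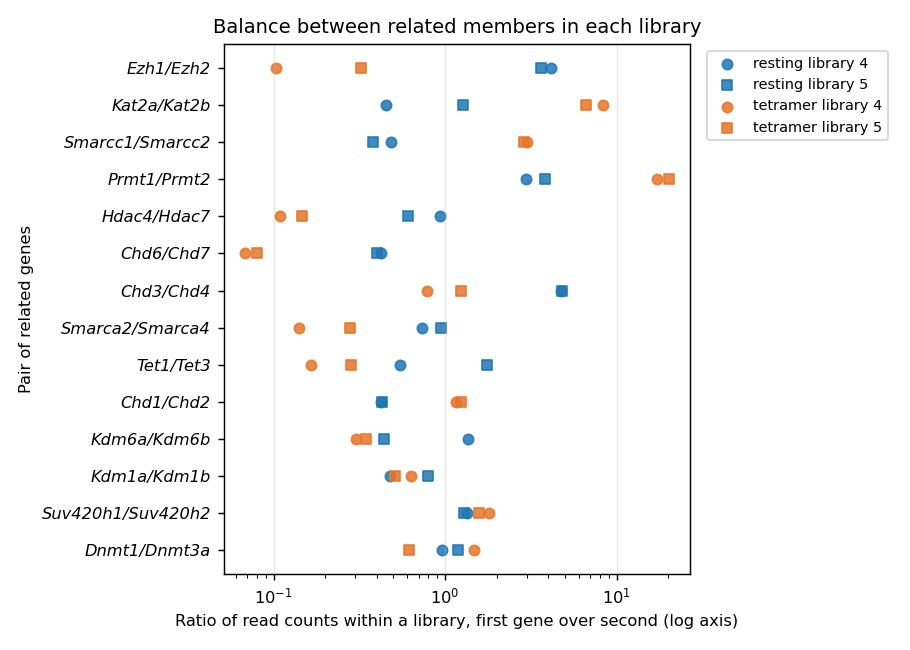
Ratio of the read counts of 2 related genes within each library, on a log axis, for 14 pairs, with blue points for resting and orange for tetramer libraries (circles library 4, squares library 5). The level of a ratio depends on the lengths of the genes, while its shift between colours does not: Ezh1/Ezh2 moves from 4.17 and 3.65 to 0.103 and 0.322, and Dnmt1/Dnmt3a overlaps.

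These ratios need no scaling between libraries. With 2 libraries against 2, the exact two-sided permutation test of a ratio cannot go below p = 0.333, which each of the pairs described as moving reached. Of 73 ratios within fixed groups of related genes, 45 (61.6%) did not overlap between resting and stimulated libraries. Among all single genes tested 31.6% were above and 33.7% below without overlap, an unlike measure, since their levels depend on scaling. The ratios share genes, and ratios between other genes were not computed. Whether non-overlap of a ratio is particular to these members therefore cannot be told. The pairs described here were chosen after their values were seen. The pairs without overlap include Ezh1 to Ezh2, Kat2a to Kat2b, Prmt1 to Prmt2, Hdac4 to Hdac7, Smarcc1 to Smarcc2, Smarca2 to Smarca4, Chd3 to Chd4, Chd6 to Chd7 and Chd1 to Chd2. The 28 pairs with overlap include Dnmt1 to Dnmt3a, Kdm1a to Kdm1b, Suv39h1 to Suv39h2, Kdm5a to Kdm5b and Smarcd2 to Smarcd3. The largest shift after that of the EZH pair was for Kat2a to Kat2b, from 0.451 and 1.28 to 8.29 and 6.67.

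Of the 7 bromodomain proteins, the smallest class, none passed by edgeR, DESeq2 or limma-voom, where edgeR called 26.4% of all genes. In each of these fits, 0 were higher and 1 was lower at an unadjusted p below 0.05. With library totals Brd2 (edgeR adjusted p = 0.0411) and Brd9 (0.0155) fell, where 19.9% of all genes did. Of the BET proteins, which recruit elongation factors to acetylated chromatin, Brd3 overlapped between groups (96.1 and 63 against 76.5 and 54.8 CPM). Brd2 was at 215 and 127 CPM at rest and 105 and 101 CPM after stimulation (-0.73, adjusted p = 0.147). Brd9, a subunit of the non-canonical SWI/SNF complex, was lower in both stimulated libraries, at 68.2 and 100.2 CPM against 38.1 and 45.1 CPM (-1.02 ± 0.39, edgeR adjusted p = 0.0553), and passed without resting library 4 (-1.25, adjusted p = 0.0313). Brd1 (0.55), Brd7 (0.39) and Brd8 (0.09) did not pass.

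Over the 32 members past the threshold, 5 kept their call in every fit that left out a library and under each of the other 8 settings tried: Ezh2, Prmt3, Prmt5, Prmt7 and Smarcc1. All 5 had risen. Of the 19 falls, 11 held without resting library 4, 16 without resting library 5, 0 without tetramer library 4 and 10 without tetramer library 5. Of the 13 rises, 9, 8, 6 and 7 held. The plot of fold changes with each library left out shows that no member changed its sign.

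**Figure D4:**
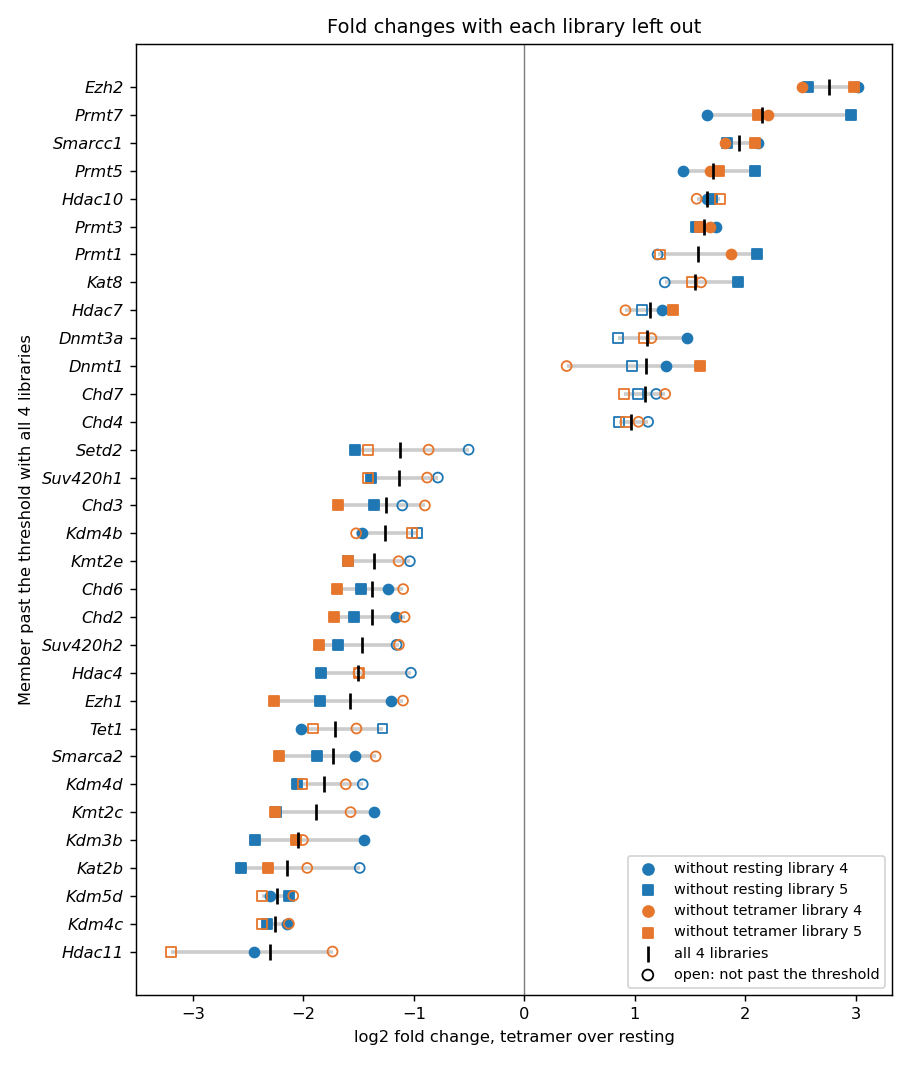
Log2 fold change (tetramer over resting, horizontal axis) of the 32 members past the threshold, with all 4 libraries (black tick) and with each library left out (blue for a resting, orange for a tetramer library, circle for library 4 and square for library 5). Open symbols are past no threshold, and the open orange circles in all 19 rows left of 0 are the fits without tetramer library 4.

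Of 223 partner genes of these enzymes in the table, from 12 lists of complex subunits and related enzymes, 221 were tested, and 39 rose (17.6%) and 17 fell (7.69%), against 14.3% and 12.1% of all genes. Histone chaperones, which deliver or evict histones, rose in 11 of 23 cases and fell in 0 by edgeR, DESeq2 and limma-voom (1 was lower at an unadjusted p below 0.05), with a median log2 fold change of 0.88. Without tetramer library 4 only 4 rose, and tested against a fold of 1.5 only 7. Chaf1b, a subunit of the replication-coupled assembly factor, went from 1.24 and 1.92 CPM to 25.2 and 8.7 CPM (log2 change 3.4 ± 0.70, and edgeR adjusted p = 0.125 without tetramer library 4). The nucleolar chaperones Npm1 (2.55 ± 0.40) and Npm3 (2.19 ± 0.41) rose as well, with the caution that Npm1 has many pseudogenes. Summed S and G2/M transcripts rose in the same libraries, and their part in these rises was not tested.

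Partners in DNA methylation rose in 6 of 19 cases (31.6%) and fell in 2 (10.5%), against 14.3% and 12.1% of all genes. The median log2 fold change of this list was -0.15, and 11 of the 19 had negative values. Uhrf1, which brings DNMT1 to replicating DNA, went from 2.28 and 9.4 CPM to 150 and 36.2 CPM (3.99 ± 0.61, edgeR adjusted p = 2.8e-05). Gadd45g, implicated in demethylation, rose by 3.58 ± 0.49 and Ahcy, which clears the by-product of methyl transfer, by 2.08 ± 0.43. Of 33 ISWI, INO80 and SRCAP genes 7 rose and 1 fell, among them Hells, a remodeller needed for DNA methylation (2.07 and 1.5 against 41.7 and 27.9 CPM), the SRCAP subunit Znhit1 (2.9 and 5.34 against 49.1 and 43.1 CPM) and Pole3 (2.55 ± 0.45). Of 13 other lysine methyltransferases 4 rose and 2 fell, and without tetramer library 4, 2 rose and 0 fell. Smyd2 rose from 13.3 and 21.8 CPM to 121 and 125 CPM, and Smyd5 from 4 and 1 counts to 129 and 67 counts. Dot1l, which methylates H3K79, rose by 1.90 ± 0.59 (edgeR adjusted p = 0.0189, and 0.335 without tetramer library 4).

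Polycomb partners gave calls in both directions, where 14.3% of all genes rose and 12.1% fell. Of 18 PRC1 genes, which make up the ubiquitin-placing and methyl-reading complex, 1 rose (5.56%) and 4 fell (22.2%), with a median of -0.69. The number that fell was 1 without tetramer library 4, 1 without tetramer library 5 and 2 without resting library 4. Cbx7, a reader of H3K27 methylation, fell from 105 and 82.5 CPM to 16.6 and 16 CPM (-2.52 ± 0.42), and Phc3 by 1.54 ± 0.43. Bmi1 rose by 1.90 ± 0.64. Phc3 did not pass without resting library 4 (edgeR adjusted p = 0.0674), tetramer library 4 (0.14) or tetramer library 5 (0.0515), nor Bmi1 without resting library 5 (0.159), tetramer library 4 (0.109), tetramer library 5 (0.0971) or with library totals (0.054). Of 8 partners of PRC2, with a median of 0.29, Phf1 fell from 91.2 and 56.6 CPM to 10 and 7.89 CPM (-3.04 ± 0.46, edgeR adjusted p = 2.74e-05), Rbbp7 rose by 1.56 ± 0.37 (adjusted p = 0.054 without tetramer library 4), and the other 6 did not pass.

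In the remaining lists the share that rose was between 0% (other demethylases) and 13.8% (other acetyltransferases and partners), against 14.3% of all genes. The share that fell was between 0% and 12.5%, against 12.1% of all genes. Without tetramer library 4, the other acetyltransferases gave 1 rise and 0 falls and the deacetylase corepressors 0 and 1, and without tetramer library 5 the corepressors gave 0 and 0. Deacetylase corepressors gave 1 rise and 3 falls of 24 tested, led by Rcor3 (-1.76 ± 0.52), Gatad2b (1.51 ± 0.55) and Mbd2 (-1.31 ± 0.40). SWI/SNF partners gave 2 rises and 0 falls of 16, Actl6a (1.01 ± 0.37) and Actb (1.97 ± 0.49), of which Actb is also cytoskeletal actin with many pseudogenes. Other acetyltransferases and their partners gave 4 rises and 2 falls of 29, led by Naa10 (1.95 ± 0.43), Epc2 (-1.58 ± 0.49) and Hat1 (1.5 ± 0.49), the acetyltransferase of new histones. The MLL complex partners gave 1 rise and 0 falls of 13 (Wdr5, 1.36 ± 0.48), the other demethylases 0 and 1 of 8 (Phf8, -1.34 ± 0.44), and the partners of BET proteins in elongation 1 and 1 of 17 (Larp7, 1.52 ± 0.37, and Aff4, -1.32 ± 0.41). Among these, Naa10 and Larp7 kept their calls whichever library was left out. Actb did not pass without tetramer library 4 (edgeR adjusted p = 0.148), nor Rcor3 without tetramer library 4 (0.17) or 5 (0.0875), nor Mbd2 without resting library 4 (0.102) or tetramer library 5 (0.244). Hat1 did not pass without resting library 5 (0.135) or tetramer library 4 (0.54). Actl6a was lost whichever library was left out (0.0634 to 0.248). Gatad2b, Epc2, Phf8 and Aff4 did not pass without resting library 4 (0.115, 0.177, 0.348 and 0.0708), tetramer library 4 (0.152, 0.0898, 0.107 and 0.211) or tetramer library 5 (0.276, 0.147, 0.186 and 0.0812), nor Wdr5 without resting library 5 (0.0713), tetramer library 4 (0.383) or tetramer library 5 (0.0773). With library totals Actl6a, Gatad2b, Hat1 and Wdr5 did not pass. At an unadjusted edgeR p below 0.05, 3 SWI/SNF partners and 2 MLL complex partners were lower and 2 other demethylases higher. The DESeq2 test gave 1, 2 and 2, and limma-voom 1, 2 and 3. By adjusted p, edgeR, DESeq2 and limma-voom each called 0 in these directions.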

How the data were processed

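The deposited table holds raw read counts per gene symbol for 4 libraries. Per the submitters' processing notes, Bowtie2, DESeq2 and mm9 were used. Software versions, annotation and strand of counting: not given in the sources used here. Within each group, the authors' columns carry the numbers 4 and 5 where the titles have 1 and 2, and so were mapped to a group but to no single sample. Per the labels' protocols, cDNA was amplified by PCR, and no molecular identifiers are mentioned. Of 12021 listed genes, each with at least 1 count in every library, 1 was left out because a cell is not a number. No count of 0 is listed, so genes silent in a library are not analysed here.

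Counts were filtered (filterByExpr), TMM-scaled and fitted with edgeR 4.0.16 in R 4.3.3 (quasi-likelihood F test, Benjamini-Hochberg over 11312 genes, adjusted p below 0.05). SEs derive from F. CPM uses TMM-adjusted totals. Alternatives used limma 3.58.1, DESeq2 1.42.0, other scalings and filters, glmTreat against a fold of 1.5, a block on column number, and each library left out. Within each pair, counts differed beyond sampling noise (chi-square per degree of freedom 30.9 at rest, 28.0 with tetramer). The labels do not say whether a group's libraries are separate mice or cultures; p-values then measure the spread of these samples alone, which may be technical.

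Members and lists were chosen with earlier results of these data known. Named with values were all members past the threshold, the largest change not past it in each symbol family, all genes of fixed groups of related genes, and up to 3 called genes per partner list. Other members named were chosen after their values were seen. The result of 1 member is not reported here.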

Additional observations from a re-analysis of the deposited data

How the results depend on the processing

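With library totals in place of TMM, 6 members rose (writers 5, erasers 0, remodellers 1) and 24 fell, including 2 bromodomain proteins, and over all genes 1193 rose and 2250 fell, against 1620 and 1366. Rises were then 34.7% of all calls, against 54.3%. Tested against a fold of 1.5, 6 members rose (writers 5, erasers 0, remodellers 1) and 14 fell, and 785 of all genes fell. Leaving out 1 library at a time gave 6 to 12 members higher and 0 to 16 lower. The ranges were 5 to 8 and 0 to 7 for writers, 0 to 2 and 0 to 8 for erasers, 1 to 3 and 0 to 4 for remodellers, 0 and 0 to 1 for bromodomain proteins, and 622 to 1629 and 313 to 1488 for all genes. The lowest of these member counts came from the fit without tetramer library 4, while erasers that fell also numbered 1 without tetramer library 5, and writers that fell numbered 2 without resting library 4. The cause was not tested. DESeq2 size factors, the DESeq2 test, limma-voom, no filter and the stricter filter kept these counts within 1.5 times.

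Samples sharing a column number are not known to be pairs, and their deviations from the group means correlated at 0.0486. With that number as a replicate block, 12 members rose and 18 fell, and over all genes 1693 and 1468.

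Among 103 named genes, 13 changed sign under some setting, none of them past the threshold in either fit. With library totals Chd1 was at -0.18, Hdac3 at -0.0062, Kdm1a at -0.18, Kdm1b at -0.20, Smarca4 at -0.069 and Tet2 at -0.21, and Sirt3 was at 0.18 by limma-voom and 0.0246 with the block. With single libraries left out the ranges were -0.53 to 0.0742 (Brd3), -0.27 to 0.45 (Chd1), -0.56 to 0.16 (Chd8), -0.12 to 0.80 (Hdac3), -1.0 to 0.25 (Hdac8), -0.11 to 0.48 (Kdm1a), -0.37 to 0.96 (Kdm1b), -1.15 to 0.76 (Kdm5c), -1.09 to 1.5 (Sirt3), -0.94 to 0.35 (Sirt6), -0.0435 to 0.65 (Smarca4), -0.50 to 0.24 (Smarcd2) and -0.44 to 0.50 (Tet2). Hdac11 and similar genes with few counts are limited by depth: it was not tested under the stricter filter or without resting library 5.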
